A study of Capra hircus with 12 samples.

Results

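T cell and cytotoxic genes were followed through the yearly cycle of the goat cashmere follicle. The rule named 9 genes by symbol, and 8 of them match a row in the files: GZMA, CD3D, CD3E, CD3G, CD2, CD8A, CD5 and LCK, out of 20326 genes in all. The ninth, ZAP70, is not analysed here. RNA came from secondary hair follicles, which produce the cashmere fibre, of goats (Capra hircus) aged 1.5 years; the labels name no treatment and no genotype. Growing follicles (anagen) were collected in May and again in September. Regressing follicles (catagen) date from November and December, and resting ones (telogen) from February and March. A female and a male library stand for each month, which makes 12 libraries and 4 per stage. No month holds more than 1 stage, so differences between stages and between seasons cannot be told apart. The labels do not say whether an animal gave follicles in more than 1 month, or how many follicles went into a library, so p-values measure the spread between these libraries only.

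T cells recognise peptides through a T cell receptor that has no signalling tail of its own. The receptor is held in a complex with the CD3 gamma, delta and epsilon chains (CD3G, CD3D and CD3E) and the zeta chain (CD247), whose cytoplasmic motifs are phosphorylated by the kinase LCK. CD8A is part of the coreceptor that binds MHC class I and brings LCK to the receptor, CD2 is an adhesion receptor for CD58, and CD5 is a surface receptor that restrains receptor signalling. GZMA is a serine protease stored in the granules of cytotoxic T cells and natural killer cells, which perforin (PRF1) helps to deliver into target cells. Skin T cells live in and around the hair follicle, and the growing hair bulb is known as a site of immune privilege with low antigen presentation.

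Values are the deposited expression values, in a column headed TPM, a unit scaled per transcript length. Levels of different genes are set side by side on that heading, although the step that changed the sums of the libraries is not stated. All 8 genes had a value above 0 in every library. GZMA was the most abundant, with a mean of 27.99 over the 12 libraries, against a median of 14.1 over the genes tested. CD3D followed at 8.27, CD3G at 2.52, LCK at 2.35, CD3E at 1.65 and CD5 at 1.15, and CD2 and CD8A lay lowest at 0.864 and 0.485. A gene was tested when at least 2 libraries had a value of at least 1. Of the 8 genes 7 met this; CD8A did not, and CD2 met it through 3 libraries, 2 of them from telogen, so a count over the 7 says nothing of the genes below the limit. The sample titles name follicles and no cell type. Which cells held the RNA of these genes therefore cannot be told. Nor can a change in the number or share of cells be told apart from a change in RNA per cell. The titles also do not say how the follicles were isolated or whether surrounding skin came along.

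**Figure D1:**
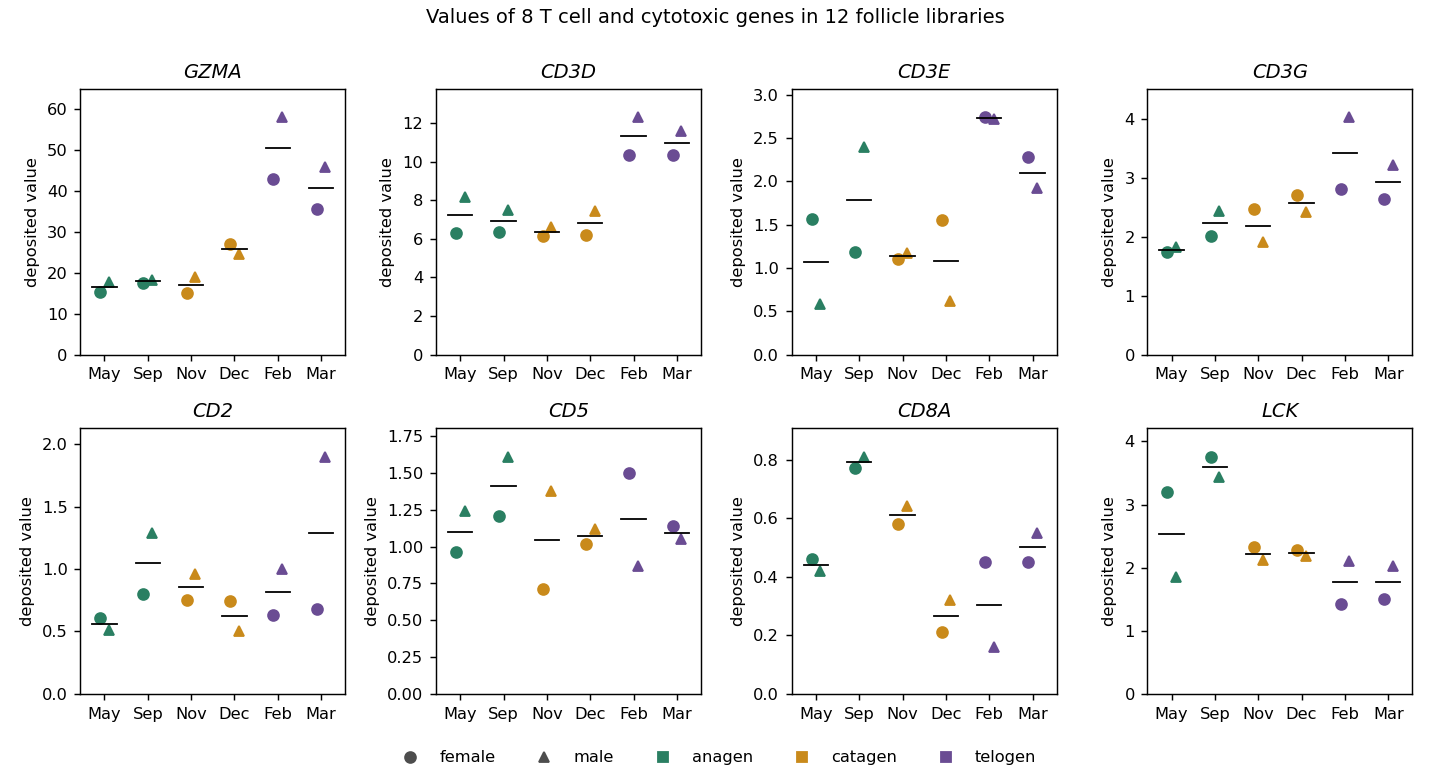
Deposited expression values (vertical axes, each from 0, the column headed TPM by the authors) of the 8 genes by month; circles are female and triangles male libraries, colours mark the stage and bars the mean of 2 libraries. GZMA and CD3D lie above all other libraries in the 4 telogen libraries, as do 14.1% of all genes tested. LCK is highest in September and CD8A stays below 1 throughout.

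GZMA, CD3D and CD3E rose from catagen to telogen. These are 3 of the 7 tested genes, and none fell. Over all 16095 genes tested, 24.5% were higher and 19.0% lower in telogen at an adjusted p under 0.05, so a rise in this comparison was common. The test was limma on log2(value + 1) with Benjamini-Hochberg adjustment, and differences below are on that scale, which understates the change of genes with values near 1.

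GZMA showed the largest difference of the 7 on the log2(value + 1) scale, whereas the ratio of telogen to catagen means was slightly larger for CD3E (2.18). GZMA values were 15.30 and 17.65 in the May female and male, 17.49 and 18.20 in September, 14.99 and 18.94 in November, 27.0 and 24.48 in December, 42.71 and 57.86 in February and 35.49 and 45.76 in March. All 4 telogen libraries lay above those of catagen and anagen, as was the case for 14.1% of all genes tested. The mean was 45.5 ± 9.32 (SD, n = 4) in telogen, 21.4 ± 5.42 in catagen and 17.2 ± 1.28 in anagen. GZMA rose by 1.07 from catagen to telogen (SE 0.173, limma adjusted p = 8.51e-04), a ratio of means of 2.13. It fell by 1.34 from telogen to anagen (SE 0.173, adjusted p = 1.69e-04), and the telogen mean was 2.65 times that of anagen.

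CD3D, the delta chain, behaved alike at a lower level. Its values were 6.28 and 8.17 in the May female and male, 6.36 and 7.51 in September, 6.14 and 6.61 in November, 6.20 and 7.44 in December, 10.37 and 12.3 in February and 10.33 and 11.58 in March. All 4 telogen libraries lay above the other 8, as was the case for 14.1% of all genes tested, and anagen and catagen overlapped. CD3D rose by 0.68 from catagen to telogen (SE 0.106, limma adjusted p = 7.38e-04) and fell by 0.59 from telogen to anagen (SE 0.106, adjusted p = 7.28e-04). The means were 7.08 ± 0.919 (SD, n = 4) in anagen, 6.60 ± 0.599 in catagen and 11.1 ± 0.964 in telogen.

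CD3E, the epsilon chain, was scarcer and more variable. Its values were 1.57 and 0.58 in the May female and male, 1.18 and 2.40 in September, 1.10 and 1.17 in November, 1.55 and 0.62 in December, 2.74 and 2.72 in February and 2.28 and 1.92 in March. Telogen lay above all catagen libraries but overlapped with anagen through the September male. How many of all genes separate telogen from catagen in this way was not counted. CD3E rose by 0.71 from catagen to telogen (SE 0.212, limma adjusted p = 0.0175), and without the December male the difference was 0.58 with an adjusted p of 0.0527. It fell by 0.54 from telogen to anagen (SE 0.212, adjusted p = 0.0475), a call that was lost in 17 of 27 alternatives, with adjusted p up to 0.271. These included leaving out either May library, the September female, either November library, either February library or the March female.

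CD3G, the gamma chain, passed against anagen only. Its values were 1.74 and 1.82 in the May female and male, 2.02 and 2.44 in September, 2.47 and 1.91 in November, 2.71 and 2.43 in December, 2.81 and 4.03 in February and 2.65 and 3.22 in March. Telogen stood above all anagen libraries, and the share of all genes for which this holds was not counted. Catagen overlapped with both other stages, with telogen through the December female. CD3G fell by 0.47 from telogen to anagen (SE 0.132, limma adjusted p = 0.00979). The difference from catagen to telogen was 0.30 (SE 0.132, adjusted p = 0.0811), with a 95% interval of 0.01 to 0.59, and it passed when every library was scaled to the same sum (0.37, adjusted p = 0.0377). With both May libraries left out, the anagen difference of CD3G was -0.36 (adjusted p = 0.102), and without both February libraries it was -0.39 (0.0717).

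CD3G, CD3D and CD3E are neighbours in that order on chromosome 15 of the RefSeq assembly of the goat genome; the build behind the files is not given in the sources used here, so no coordinates are printed. UBE4A, a ubiquitin ligase that lies next to CD3G, was also higher in telogen than in catagen, by 0.71 (limma adjusted p = 7.22e-04), and MPZL2, an adhesion protein next to CD3E, by 0.50 (adjusted p = 0.0202). One gene further out, ATP5L, a subunit of the mitochondrial ATP synthase on the side of UBE4A, fell by 1.27 (adjusted p = 5.90e-04), and MPZL3 on the other side did not pass (0.02, adjusted p = 0.892). These neighbours were looked up after the values were seen. UBE4A and MPZL2 were far more abundant than the CD3 chains, at 72.7 and 286.7 on average in telogen. Whether reads were assigned by strand is not given here.

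LCK went the other way. Its values were 3.20 and 1.86 in the May female and male, 3.76 and 3.43 in September, 2.32 and 2.12 in November, 2.28 and 2.19 in December, 1.43 and 2.11 in February and 1.51 and 2.03 in March. The September libraries were the highest. Telogen lay below catagen by a near tie, with 2.11 in the February male against 2.12 in the November male. The share of all genes that separate a pair of stages in this way was not counted. Anagen reached into the telogen range through the May male. LCK was higher in anagen than in telogen by 0.53 (SE 0.156, limma adjusted p = 0.0116; 3.06 ± 0.834 against 1.77 ± 0.349, SD, n = 4). Without both September libraries the difference was 0.33 (adjusted p = 0.147). From catagen to telogen the LCK difference was -0.23 (SE 0.156, adjusted p = 0.25, 95% interval -0.56 to 0.11), and with quantile normalization it passed (-0.44, adjusted p = 0.0337).

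CD2 and CD5 did not pass in any stage comparison. CD2 values ran from 0.51 to 1.29 in anagen, 0.50 to 0.96 in catagen and 0.63 to 1.90 in telogen, with the March male at the top. The CD2 difference between telogen and catagen was 0.21 (95% interval -0.21 to 0.63, limma adjusted p = 0.407). CD5 ran from 0.96 to 1.61, 0.71 to 1.38 and 0.87 to 1.50 in the 3 stages, and its difference between telogen and catagen was 0.06 (95% interval -0.25 to 0.37, adjusted p = 0.762). The stage ranges of both genes overlap throughout.

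CD8A stayed below 1 in every library. Its values were 0.46 and 0.42 in the May female and male, 0.77 and 0.81 in September, 0.58 and 0.64 in November, 0.21 and 0.32 in December, 0.45 and 0.16 in February and 0.45 and 0.55 in March. September was highest and above every other month, and December and the February male were lowest. With no limit on low values, CD8A did not pass in any stage comparison (adjusted p = 0.609 for catagen against anagen, 0.855 for telogen against catagen and 0.221 for anagen against telogen). Read depth is unknown, so the precision of values this low cannot be given.

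**Figure D2:**
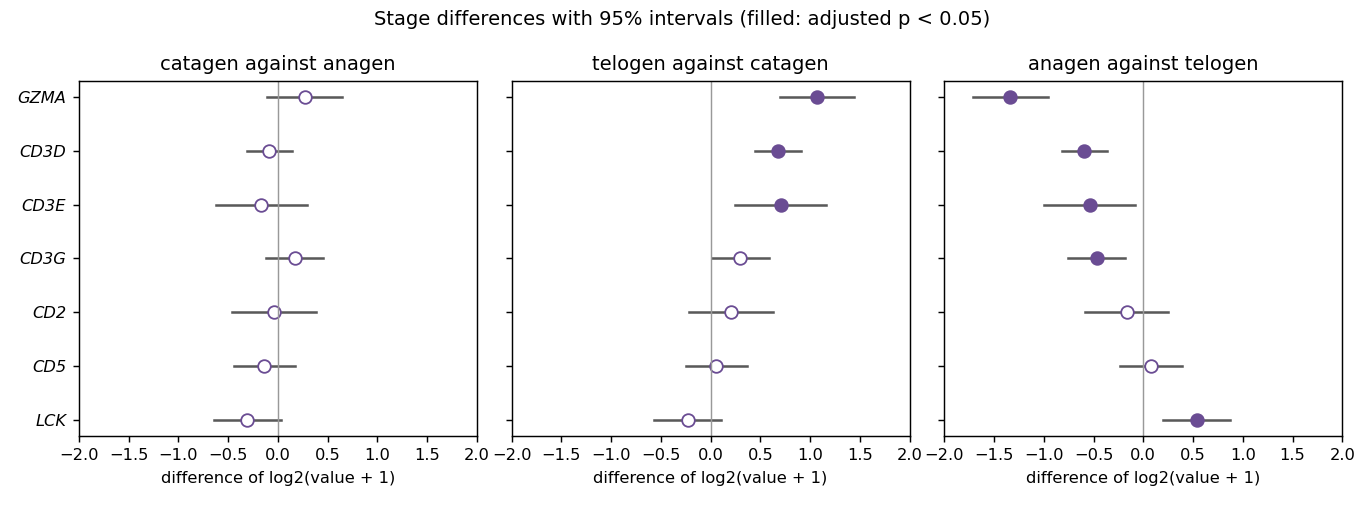
Differences of log2(value + 1) between stages for the 7 tested genes (points) with 95% intervals (lines), 1 panel per comparison; filled points passed at an adjusted p under 0.05. In telogen against catagen the filled points are GZMA, CD3D and CD3E, right of 0, and the unfilled CD3G, CD2 and CD5 also lie right of 0. LCK alone lies right of 0 among the filled points in anagen against telogen, and no point is filled in catagen against anagen.

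Between catagen and anagen none of the 7 genes passed in limma (lowest adjusted p = 0.350), and none had an unadjusted p under 0.05. Over all genes tested 0.0559% passed here, and 15.7% had an unadjusted p under 0.05. GZMA differed by 0.27 (SE 0.173, adjusted p = 0.441) and LCK by -0.31 (SE 0.156, adjusted p = 0.350). Between anagen and telogen 5 of the 7 passed, namely LCK higher in anagen and GZMA, CD3D, CD3E and CD3G lower; over all genes tested 23.7% were higher and 29.2% lower. The 2 telogen comparisons share the telogen libraries and are not independent of each other.

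By month, GZMA and CD3D rose between December and February. In the comparison of February with December GZMA was higher by 0.93 (SE 0.184, limma adjusted p = 0.0207) and CD3D by 0.66 (SE 0.165, adjusted p = 0.0299), 2 of the 7 genes with none lower, where 8.90% of all genes tested were higher and 7.69% lower. GZMA lost this call without the December female (adjusted p = 0.086), the December male (0.128) or the February male (0.105). CD3D lost it without the December female (0.145), the December male (0.128), the February female (0.0538) or the February male (0.137). With May set against March both fell, GZMA by 1.24 (SE 0.184, adjusted p = 0.00542) and CD3D by 0.55 (SE 0.165, adjusted p = 0.036), where 13.4% of all genes were lower and 13.9% higher. Leaving out the May female ended the GZMA call (adjusted p = 0.0505). That of CD3D ended without the May female (0.219), the May male (0.065), the March female (0.0774) or the March male (0.0946).

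No member passed in the other 4 steps of the year, with limma adjusted p of 0.562 or more. In these steps 0.137% (September against May), 0.0186% (November against September), 0% (December against November) and 0.00621% (March against February) of all genes passed, and 9.77%, 1.86%, 3.65% and 3.95% had an unadjusted p under 0.05. GZMA had an unadjusted p of 0.0103 between November and December (a difference of 0.58, SE 0.184, adjusted p = 0.946), with December libraries at 27.0 and 24.48 against 14.99 and 18.94. LCK had one of 0.0375 between September and November (-0.51, adjusted p = 1). Ordered by month means, GZMA ran from February (50.3) over March (40.6), December (25.7), September (17.8) and November (17.0) to May (16.5). The last 3 are not separable, since their libraries overlap. In the F test over the 6 months GZMA (adjusted p = 0.00331) and CD3D (0.0181) passed, 2 of the 7, where 32.7% of all genes did, and without the February male 1 of them passed.

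Male libraries had the higher CD3D value in 6 of 6 months and the higher GZMA value in 5 of 6. For CD3G, CD2, CD8A and CD5 it was 4 of 6, and for CD3E and LCK 2 of 6. The share of all genes with males higher in every month was not counted. The differences between male and female with month as a block were 0.21 for CD3D (SE 0.0688, limma unadjusted p = 0.0154) and 0.20 for GZMA (SE 0.0873, 0.0461). Neither passed in limma over all genes (adjusted p = 0.616 and 0.670), and 0 of the 7 genes did, where 0.0559% of all genes passed and 7.36% had an unadjusted p under 0.05. The interaction of sex and stage, added after the data were seen, gave adjusted p of 0.663 or more for each of the 7; none had an unadjusted p under 0.05, against 9.28% of all genes, and 0.00621% of all genes passed.

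Ratios between these genes are given as a description, with no test. The summed value of the 3 CD3 chains was 9.56 to 12.35 in anagen, 9.69 to 10.49 in catagen and 15.26 to 19.05 in telogen, with no overlap between telogen and the rest. GZMA per CD3 sum was 1.47 to 1.83 in anagen, 1.54 and 1.95 in November, 2.58 and 2.33 in December, 2.68 and 3.04 in February and 2.33 and 2.74 in March, so December reached the telogen range. LCK per CD3 sum was 0.176 to 0.393 in anagen, 0.209 to 0.239 in catagen and 0.0898 to 0.121 in telogen, where all 4 libraries lay below the other 8. These ratios were chosen after the values were seen. For 14.1% of single genes tested the 4 telogen libraries lay above the other 8. No such share was counted for sums or ratios.

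**Figure D3:**
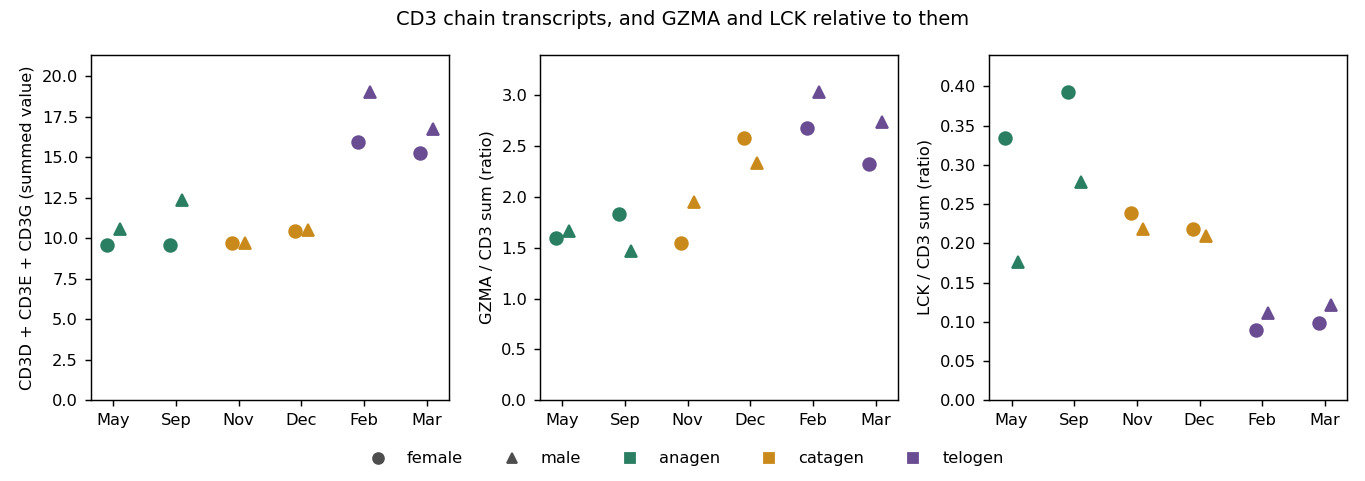
Left, the summed value of CD3D, CD3E and CD3G; middle, GZMA divided by that sum; right, LCK divided by it, each by month with circles for female and triangles for male libraries and colours for the stage. Telogen is highest in the left panel (15.26 to 19.05) and lowest in the right one (0.0898 to 0.121), and in the middle panel December lies with telogen.

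Of 18 tested genes of the receptor complex and early signalling, 3 were higher and 3 lower in telogen than in catagen. Their median difference was 0.02 against 0.07 over all genes, of which 24.5% were higher and 19.0% lower. FYN, a kinase related to LCK that many cell types express, fell by 0.38 (limma adjusted p = 0.0214), and PLCG1, the phospholipase that produces second messengers after receptor signalling, fell by 0.46 (adjusted p = 0.0146). RASGRP1, an activator of Ras downstream of the receptor, rose by 0.60 (adjusted p = 0.0024). With every library scaled to the same sum the list held 3 rises and 0 falls. FYN (limma adjusted p = 0.0785), PLCG1 (0.105) and LAT (0.0989) did not pass there. CD247, the zeta chain that completes the CD3 complex, did not pass, at 8.76 to 10.52 in anagen, 7.98 to 9.45 in catagen and 7.69 to 9.67 in telogen (difference -0.02, adjusted p = 0.903). PTPRC, the common leukocyte antigen CD45, differed by 0.27 (adjusted p = 0.289), with 2.70 to 4.14 in catagen and 3.93 to 4.81 in telogen.

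Coreceptors, costimulators and checkpoint receptors gave 8 higher and 0 lower of 19 tested. Their median was 0.33, and of all genes tested 24.5% were higher and 19.0% lower. CD226, an activating receptor of T and natural killer cells, rose by 0.79 (limma adjusted p = 9.90e-04), and BTLA, an inhibitory receptor of lymphocytes, by 0.52 (adjusted p = 0.00528). CD27, a costimulatory receptor, rose by 0.86 (adjusted p = 0.00146), from 142.78 to 194.72 in catagen to 232.21 to 363.53 in telogen. Its level is far above that of every CD3 chain. CD4, the coreceptor for MHC class II, did not pass (0.15, adjusted p = 0.515) and ran from 1.42 to 1.69 in catagen and 0.91 to 2.36 in telogen. CD8B, the partner chain of CD8A, did not pass either (0.02, adjusted p = 0.931), with a mean of 0.844 over the 12 libraries.

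Of 25 genes on the list of cytotoxic granule and natural killer cell genes 18 match a row and 12 were tested. Among the 12, 2 were higher and 1 lower in telogen than in catagen, against 24.5% and 19.0% of all genes. PRF1, which encodes perforin, ran from 0.30 to 0.94 in anagen, 0.24 to 0.89 in catagen and 0.22 to 0.53 in telogen and was below the limit for testing, as were GZMK (0 to 1.51 in telogen) and GZMM (0.19 to 1.22 in telogen). NKG7, a granule membrane protein, had 0.42 to 0.91 in catagen and 0.41 to 1.53 in telogen (difference 0.23, limma adjusted p = 0.549). CD244 and KLRG1, receptors of natural killer and cytotoxic T cells, rose by 0.53 (adjusted p = 0.0215) and 0.62 (adjusted p = 0.00763). KLRG1 met the limit for testing through 3 libraries, all of them from telogen (0.28 to 0.72 in catagen, 0.92 to 1.73 in telogen). The limit therefore favoured a rise of KLRG1, 1 of the 2 rises of this list. UNC13D, which primes cytotoxic granules for release, fell by 0.76 (adjusted p = 0.0021). With quantile normalization CD244 (adjusted p = 0.0502) and KLRG1 (0.104) did not pass. RAB27A, which docks secretory granules in many cell types, and SRGN, the granule proteoglycan serglycin, were the most abundant of the list, with means of 17.4 and 12.4 over the 12 libraries, and neither passed (RAB27A 0.41, adjusted p = 0.0994; SRGN -0.10, adjusted p = 0.766). These 2 are named after their values were seen. GZMB is not analysed here. GZMK lies near GZMA on chromosome 20, and GPX8, an enzyme of the endoplasmic reticulum beside GZMA, was higher by 0.66 in telogen (adjusted p = 0.00969).

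Lineage transcription factors were higher for 8 and lower for 1 of 17 tested, with a median of 0.38. The shares over all genes were 24.5% higher and 19.0% lower. PRDM1 rose by 0.44 (limma adjusted p = 0.00947) and ZEB2 by 0.75 (adjusted p = 0.0108), and MAF fell by 0.50 (adjusted p = 0.0218, and 0.0626 with every library scaled to the same sum); these 3 are also expressed outside lymphocytes. FOXP3, the factor of regulatory T cells, had 1.15 to 1.63 in anagen, 0.77 to 1.06 in catagen and 0.62 to 1.09 in telogen. Its difference between telogen and catagen was 0.06 (limma adjusted p = 0.712). Of 12 cytokine and receptor genes 3 rose and 0 fell, a share of rises near the 24.5% over all genes. They were IL10RA, a chain of the interleukin-10 receptor, by 0.66 (adjusted p = 4.37e-04), IL7, a survival factor for T cells, by 0.76 (adjusted p = 0.00415), and IL12RB2, a chain of the interleukin-12 receptor, by 0.66 (adjusted p = 0.00109). IL7R, the receptor for IL7, did not pass (0.21, adjusted p = 0.215). Of 21 homing and retention genes 6 rose and 0 fell, again near the 24.5% of rises over all genes. Among them were CCR6, a chemokine receptor of skin-homing T cells and other leukocytes (1.10, adjusted p = 0.00102), CXCL16, the ligand of CXCR6 (0.86, adjusted p = 0.0105), and ITGA4, an integrin chain (0.37, adjusted p = 0.0486). With quantile normalization 2 of the 21 rose, and ITGA4 did not pass (adjusted p = 0.108). CD69, a retention marker of resident T cells, ran from 0.06 to 0.28 in catagen and 0.20 to 1.03 in telogen and was below the limit for testing.

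Of 15 genes of the MHC class I pathway, which displays peptides to CD8 T cells, 3 were higher and 4 lower in telogen. Their median was -0.14, and over all genes 24.5% were higher and 19.0% lower. CALR, a chaperone of class I folding, fell by 0.46 (limma adjusted p = 0.0125), and PSME1 and PSME2, subunits of the proteasome activator, fell by 0.29 (0.0312) and 0.31 (0.0159). The 3 that rose, named after their values were seen, were TAPBP, which tethers class I to the peptide transporter (0.60, adjusted p = 0.0033), PSMB8, an immunoproteasome subunit (0.78, 0.0363), and ERAP1, a peptidase that trims peptides (0.55, 0.0313). With every library scaled to the same sum these 3 passed and 0 of the list fell. Of its 7 calls 3 were left without the November female, 4 without the December male and 4 without the February female. Of 12 factors linked with immune privilege of the hair bulb 4 rose and 1 fell. MIF, a cytokine that inhibits natural killer cells, fell by 1.19 (adjusted p = 0.00124), while TGFB2 and IGF1 rose by 0.53 (0.0032) and 0.66 (0.00583).

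**Figure D4:**
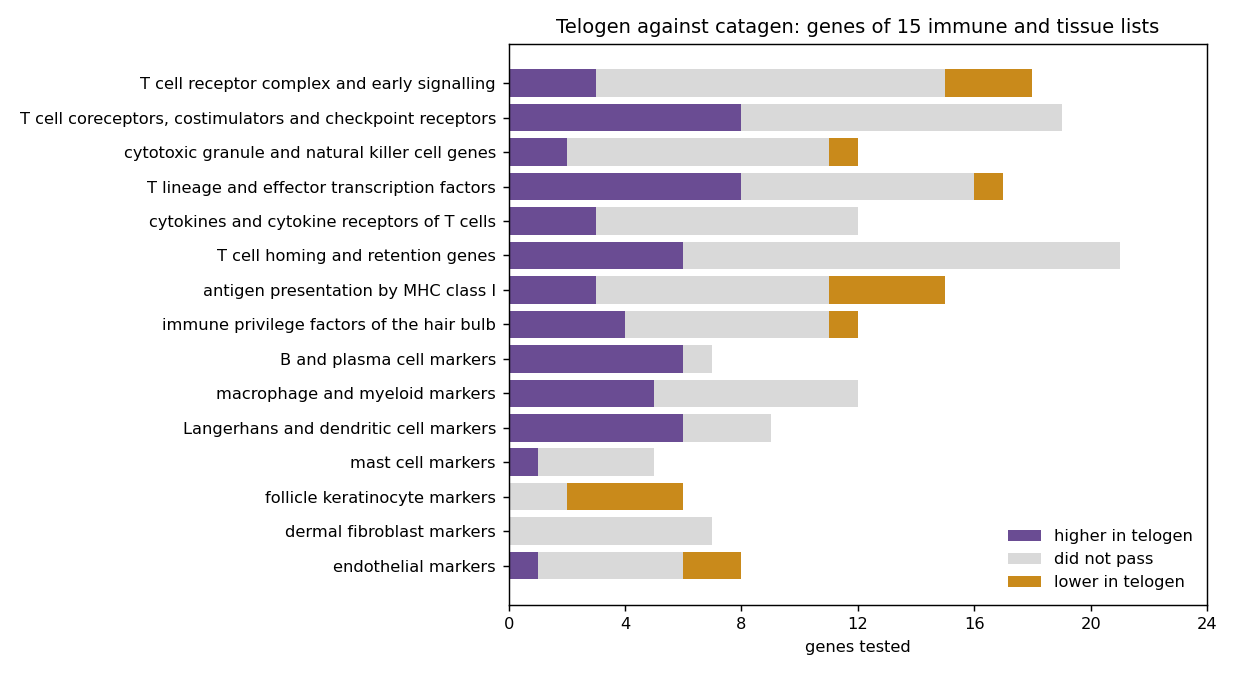
Number of tested genes (horizontal axis) in 15 gene lists that were higher in telogen (left part of each bar), did not pass (grey) or were lower in telogen (right part) than in catagen at a limma adjusted p under 0.05. Lists of B cell, dendritic cell, macrophage, mast cell, costimulatory, cytokine and homing genes hold rises only in the deposited values. Follicle keratinocyte markers hold 4 falls and no rise, and the T cell receptor list holds 3 of each. Of all genes tested 24.5% were higher and 19.0% lower.

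Markers of other cell types moved in the same comparison, and their part in the differences of GZMA and the CD3 chains was not tested. Beside the counts below, 24.5% of all genes tested were higher and 19.0% lower in telogen. B and plasma cell markers rose for 6 of 7 tested, of 14 on the list. The summed value of the list was 17.5 to 22.5 in catagen and 30.9 to 39.4 in telogen. CD22 rose by 0.68, BANK1 by 0.66 and CR2 by 0.58, and MS4A1 stayed under the limit at 0.04 to 0.68. With 7 genes under the limit, the count says nothing of them, and the limit can favour genes that are high in 1 stage. How many of the 7 tested met it through telogen alone was not counted. Langerhans and dendritic cell markers rose for 6 of 9 (36.2 to 41.8 against 61.03 to 79.45), with BATF3 at 0.66, XCR1 at 1.10 and ITGAX at 0.68. CD207, the Langerhans cell marker of this list, was tested and did not pass. Macrophage and myeloid markers rose for 5 of 12 (50.2 to 62.5 against 67.92 to 120.75), with LAPTM5 at 1.20, TYROBP at 0.55 and AIF1 at 0.71, and mast cell markers for 1 of 5, HPGDS at 0.68. Follicle keratinocyte markers fell for 4 of 6, from a sum of 22630 to 33425 in catagen to 9778 to 20940 in telogen. Of these 4 falls 1 was left without the November female and 2 without the November male, the February female or the March female, and 1 with quantile normalization. With quantile normalization the B cell list kept 3 calls. Of 7 fibroblast markers 0 passed in limma and 0 had an unadjusted p under 0.05, and endothelial markers 1 higher and 2 lower of 8. No gene of these lists was at 0 in all libraries.

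The libraries of telogen also differed in composition. Ribosomal protein genes held 12.5% to 17.6% of the summed values in telogen and 17.6% to 24.8% in the other libraries, and mitochondrial genes held 4.63% to 11.8% against 1.53% to 3.51%. The March male stood nearest to the other stages on the main axis of variation. Without it the differences between telogen and catagen were 1.06 for GZMA, 0.66 for CD3D and 0.78 for CD3E, each with a limma adjusted p under the threshold (0.00113, 9.31e-04 and 0.0157).

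The genes whose profile was most like the mean of the 7 standardised profiles, by Pearson's r over the 12 libraries and among 13131 genes, were VASH2 (r = 0.905), RAB29 (0.904), PDE12 (0.900), EVI2A (0.899), GJA5 (0.894) and IKZF1 (0.892). For single genes the nearest profile was PTBP3 for GZMA (r = 0.993), DSEL for CD3D (0.975), CPSF3 for CD3G (0.960), BCL2L15 for CD3E (0.903) and TESC for LCK (0.902). The 12 libraries share their stages, and r is given as a description. Among the members themselves GZMA ran with CD3D (r = 0.894) and CD3G (0.874), LCK ran against GZMA (-0.592) and CD3D (-0.593), and CD5 was unrelated to CD3D (0.061) and GZMA (-0.038).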

How the data were processed

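RNA of secondary hair follicles was sequenced in 12 libraries. The authors used kallisto 0.46.1 and sleuth 0.30.0, per the submitters' processing notes; the genome build is not given in the sources used here. The deposited signal values are headed TPM per the file headers, but their sums differ between libraries (904623 to 1127797), so they are not plain TPM, and the step behind this is not stated. Read depth is unknown. Symbols were taken by gene number from the RefSeq table of assembly ARS1.2, which matched 20294 of 20326 genes.

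Tests used limma 3.58.1 (R 4.3.3) with a mean-variance trend on log2(value + 1) of the 16095 genes that reached a value of 1 in 2 or more libraries. The fits had 3 stages of 4 libraries, 6 months of 2, or sex beside month as a block. Benjamini-Hochberg adjustment ran over all 16095 genes, with a threshold of 0.05. On simulated data for telogen against catagen, 83% of 200 genes changed by 1 on the log2 scale, among 16095, were recovered, with 12 false calls. The simulated noise held the spread within months only. It lacked the spread between the months of a stage, so the recovery may be overstated for the real libraries. Smaller changes, such as those of CD3D and CD3E, were not simulated.

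The text names all members, the 3 called genes of highest mean in each list, 10 genes whatever their result, and the most similar profiles. The members and lists were chosen with earlier results of these data known. No pair of libraries shared more than 1.55% of equal values. Alternatives covered pseudocount, filter, scaling, the variance trend, a replicate block, averaged months, each library left out and, added after seeing the data, both libraries of a month left out.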

Additional observations from a re-analysis of the deposited data

Results flagged for a closer look

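Measures of 39 groups of 4 libraries were searched for a library that stands apart, namely the 8 genes and 5 library measures in each stage; chance flags about 1 group in 20. None of the 8 genes gave such a library. The December female had the lowest share of ribosomal protein genes in catagen, 20.6% of its summed values, against 24.4% to 24.8% in the other 3. The March male had the lowest score of telogen on the first principal component, 22.97, against 52.4 to 56.4 in the other 3.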

How the results depend on the processing

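Over 27 alternatives GZMA and CD3D kept their calls in both comparisons with telogen; adjusted p was at most 0.0183 and 0.0159 in telogen against catagen. The count of members called was 2 to 4 there and 0 throughout in catagen against anagen and between the sexes. In anagen against telogen it was 3 without both May libraries and 2 without both February libraries, and 4 to 5 with 1 library left out. With 1 library left out, the count was 1 to 2 over the 6 months (1 without the February male) and 2 to 4 over consecutive months (2 without the May female, either December library or the February male); a month left with 1 library was assumed to vary like the others. CD3E in telogen against catagen lost its call with quantile normalization (0.47, adjusted p = 0.0745) and without the December male or both libraries of November, December or February (adjusted p up to 0.148). Without both February libraries LCK in anagen against telogen had an adjusted p of 0.056.

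Signs turned only for differences that had not passed. In catagen against anagen, GZMA was -0.0216 without both December libraries, CD3E 0.0478 without both September libraries, and CD2 0.0030 with quantile normalization, 0.15 without both September and 0.0579 without both December libraries. With quantile normalization CD2 was -0.11 in telogen against catagen and 0.10 in anagen against telogen, where it was 0.0243 without both May libraries; CD5 was -0.27 in telogen against catagen. CD5 in anagen against telogen was -0.0224 without both September libraries. With 1 library left out the ranges were -0.36 to 0.00997 (CD3E) and -0.12 to 0.0807 (CD2) in catagen against anagen, -0.29 to 0.0135 for CD2 in anagen against telogen and -0.0269 to 0.13 for CD5 in telogen against catagen. The cause was not tested.

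Of all genes called in telogen against catagen, 3948 were higher and 3063 lower; with the same sum in every library it was 4371 and 2058, and with no filter 5558 and 3045. The same sum moved the median difference of all genes from 0.07 to 0.15. Replicate numbers follow sex, and whether they also mark an animal is not given: over 15 pairs of months the deviations of same-numbered libraries correlated at -0.26 to 0.44, above 0.1 in 9. With the replicate number as a block the counts were 3 in telogen against catagen and 4 in anagen against telogen, where CD3E had an adjusted p of 0.0513. Depth is unknown, so the precision of values near 1, such as those of CD2, CD5 and CD8A, cannot be given.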
